A study of Mus musculus with 4 samples.

Results

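The Hox genes are homeobox transcription factors that lie in 4 clusters, HoxA on mouse chromosome 6, HoxB on 11, HoxC on 15 and HoxD on 2, and are numbered by paralog group from 1 to 13. Within a cluster the order of the genes follows the order in which they come on and the place along the body axis where they are used: low paralog numbers (here called anterior) come on first and reach into the hindbrain, middle numbers are used at cervical and thoracic levels, and high numbers (posterior) in the lumbar, sacral and tail region, the distal limb and the urogenital tract. The forebrain and midbrain lie rostral to the front limit of all of them, so in the neural plate an expressed anterior Hox gene marks cells caudal to the midbrain. Retinoic acid, Wnt, Fgf and Cdx factors open the clusters in caudal cells, Polycomb proteins hold them silent elsewhere, and Meis and Pbx proteins bind DNA together with Hox proteins.

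Hox genes were read here in 4 arrays of Rax::GFP+ and Rax::GFP- cells, 2 per group. The cells were sorted by fluorescence from day 4.5 aggregates of mouse embryonic stem cells in SFEBq culture, a serum-free method in which quickly reaggregated stem cells form neuroectoderm, and both groups came from 1 reporter line that carries GFP under the control of Rax, a gene of the rostral forebrain and eye field. Rax::GFP+ cells are the rostral cells, Rax::GFP- cells are all others in the same aggregates, neural or not, and no treatment set the groups apart. Each array held RNA pooled from the sorted cells of many aggregates. The study describes the arrays of a group as biological duplicates. The comparison asks how the cells of the presumptive caudal side differ from the rostral cells, and for Hox genes whether either side had begun to express any of them, anterior ones above all.

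Members were chosen as the probe sets annotated to 1 Hox gene alone. Of 38 Hox genes listed, 33 had such a probe set, with 48 probe sets of the 45101 on the array between them. HoxA was read by 9 genes, HoxB by 9, HoxC by 7 and HoxD by 8. In paralog groups 1 to 4 (anterior) 10 genes were read by 16 probe sets, in groups 5 to 8 (central) 9 genes by 15, and in groups 9 to 13 (posterior) 14 genes by 17. Hoxa6, Hoxc11 and Hoxc12 were not named by any probe set here. Hoxd4 was named only together with Hoxd3, on 2 probe sets, and Hoxb8 only together with Hoxb7, on 1. A gene is given below by the probe set with the highest mean over the 4 arrays, and its other probe sets are given where their groups did not overlap while those of the first did.

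The sort and the tissue were read from other genes first. Rax was 10.70 and 10.86 in GFP+ cells against 8.58 and 8.88 in GFP- cells (log2 values), Irx3, a caudal neural gene, was 6.88 and 6.57 against 9.67 and 8.95, and both passed the test (adjusted p = 0.00785 and 0.0175, limma). Six3, a rostral gene, also passed, with a smaller difference (-0.85, GFP- minus GFP+, adjusted p = 0.0389, limma). Of 10 forebrain and eye field genes 6 passed, all higher in GFP+ cells, where 2.63% of all genes passed in that direction. Of 11 midbrain and isthmus genes 5 passed, all higher in GFP- cells, where 5.4% of all genes did. Without GFP+ replicate 1, 0 of those 11 passed and Irx3 had an adjusted p of 0.0617. GFP- cells also held markers of cells that are not neural: 9 of 13 endoderm genes passed, with a mean log2 value of 5.88 and 6.31 on the GFP+ arrays and 7.85 and 7.98 on the GFP- arrays, and so did 8 of 10 pluripotency genes, at 6.998 and 6.75 against 9.27 and 9.23. Their part in the Hox values was not tested, and in sorted bulk samples a change in the share of a cell type and a change in RNA per cell cannot be told apart.

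No Hox gene passed the test between the groups, and few were above the middle of the array in either. In a fit of all probe sets with limma, GFP- minus GFP+, with p-values adjusted by the Benjamini-Hochberg method at 0.05, 0 of 48 Hox probe sets were called, against 7.47% of the whole array (3.64% in the direction of GFP- cells and 3.82% in that of GFP+ cells). Hox probe sets were mostly dim, and among all probe sets with a mean below the mean array median 4.03% were called. At an unadjusted p under 0.05, limma gave 4 Hox probe sets, all with the higher value in GFP- cells, where 13.6% of all probe sets reached that p in that direction. They belonged to Hoxa3, Hoxb3, Hoxb4 and Hoxc13, the last 3 by their most expressed probe set, and over genes the background in that direction was 16.7%. That count was 1 without GFP+ replicate 1, 6 without GFP+ replicate 2, 2 without GFP- replicate 1 and 1 without GFP- replicate 2. The lowest adjusted p of any Hox probe set was 0.111. With Storey's q-value in place of that adjustment the count was also 0 and the lowest q was 0.0639. Without either GFP- array no call held, and with the replicate number as a block 0 of all 45101 probe sets passed. The calls given here thus rest on both GFP- arrays and on a fit without that block. Fewer probe sets passed without GFP+ replicate 1 than the 3367 of the fit with all arrays.

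**Figure D1:**
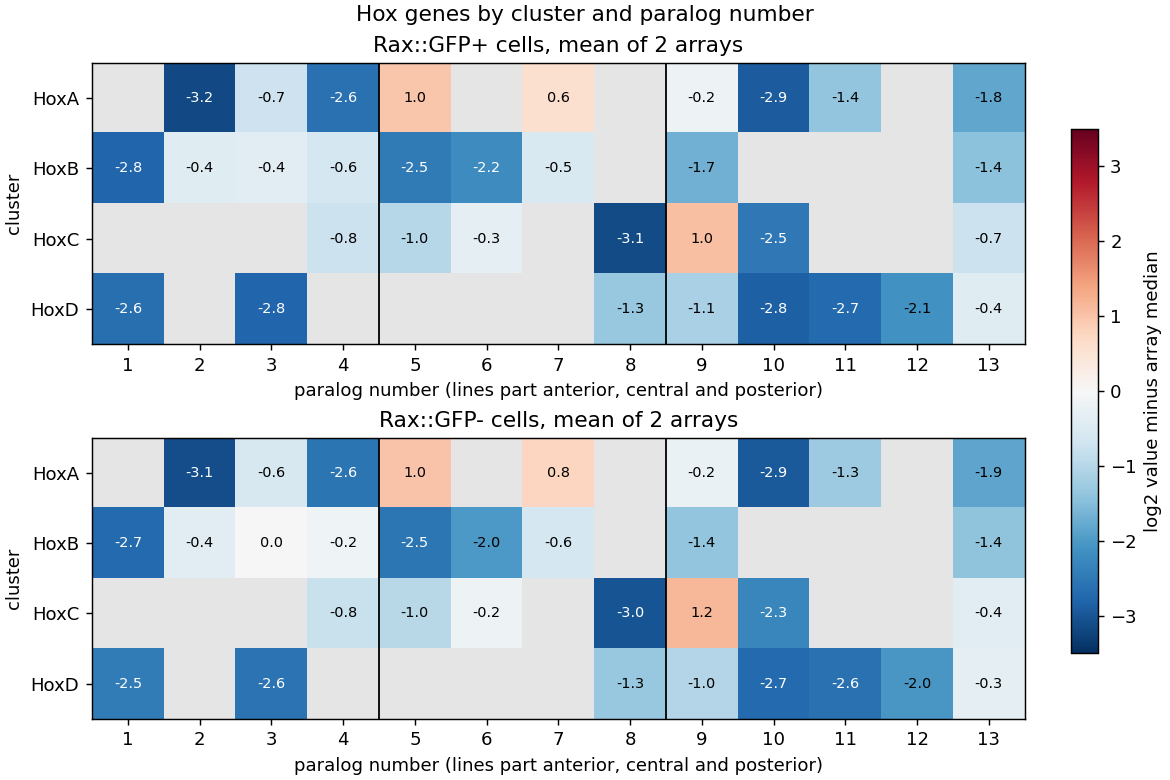
Mean log2 value minus the median of the array for each Hox gene, by cluster (rows) and paralog number (columns), in Rax::GFP+ cells (top) and Rax::GFP- cells (bottom), 2 arrays each. Red is above the array median and blue below, and a grey box is a paralog number with no probe set of its own here or no gene. The 2 panels carry nearly the same pattern, with Hoxa5, Hoxa7 and Hoxc9 above the median in both and Hoxb3 at the median in GFP- cells.

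The array median was 5.89 and 5.88 on the GFP+ arrays and 5.84 and 5.86 on the GFP- arrays, and it serves here as a mark of level, since RMA values come with no call of detection. A probe set's brightness also depends on its oligonucleotides, so the mark says where a probe set lies among all others and does not order Hox genes by transcript number. In GFP+ cells 3 of 33 Hox genes were above the median on both arrays, and in GFP- cells 4 were, where 60.2% and 62.8% of all genes were. On all 4 arrays 27 of the 33 lay below it. The median Hox gene stood at percentile 29.5 of the probe sets of an array, and the median of all genes at 64.3. With the median of the probe sets that had 1 symbol as the mark, 2 Hox genes were above it in GFP+ cells and 3 in GFP- cells. With the 75th percentile as the mark, 0 Hox genes were above it in either group.

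The genes above the median in both groups were central or posterior ones. Hoxa5, which patterns the respiratory tract and phrenic motor neurons, was 6.92 and 6.78 in GFP+ cells against 6.88 and 6.80 in GFP- cells, and its other probe set, at 3.32 and 3.06 against 3.52 and 3.34, lay far below the median on all arrays. The bright probe set of Hoxa5 carries the suffix for probes that may bind other transcripts. Hoxa7, a gene of thoracic levels, was 6.24 and 6.63 against 6.46 and 6.75, and Hoxc9, which sets thoracic motor columns, was 6.80 and 7.06 against 7.10 and 6.91. On the bright probe set of each of these 3 genes the groups overlapped, and the differences were -0.01, 0.17 and 0.08 on the log2 scale (adjusted p = 0.962, 0.61 and 0.749, limma). On the dim probe set of Hoxa5 both GFP- arrays were above both GFP+ arrays, by 0.24 in the mean (adjusted p = 0.313, limma). The other gene above the median was Hoxb3, in GFP- cells only by this mark. Hoxa9 passed the mark on 1 array, GFP+ replicate 2, at 5.89, and Hoxb4 on 1, GFP- replicate 2, at 5.86.

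**Figure D2:**
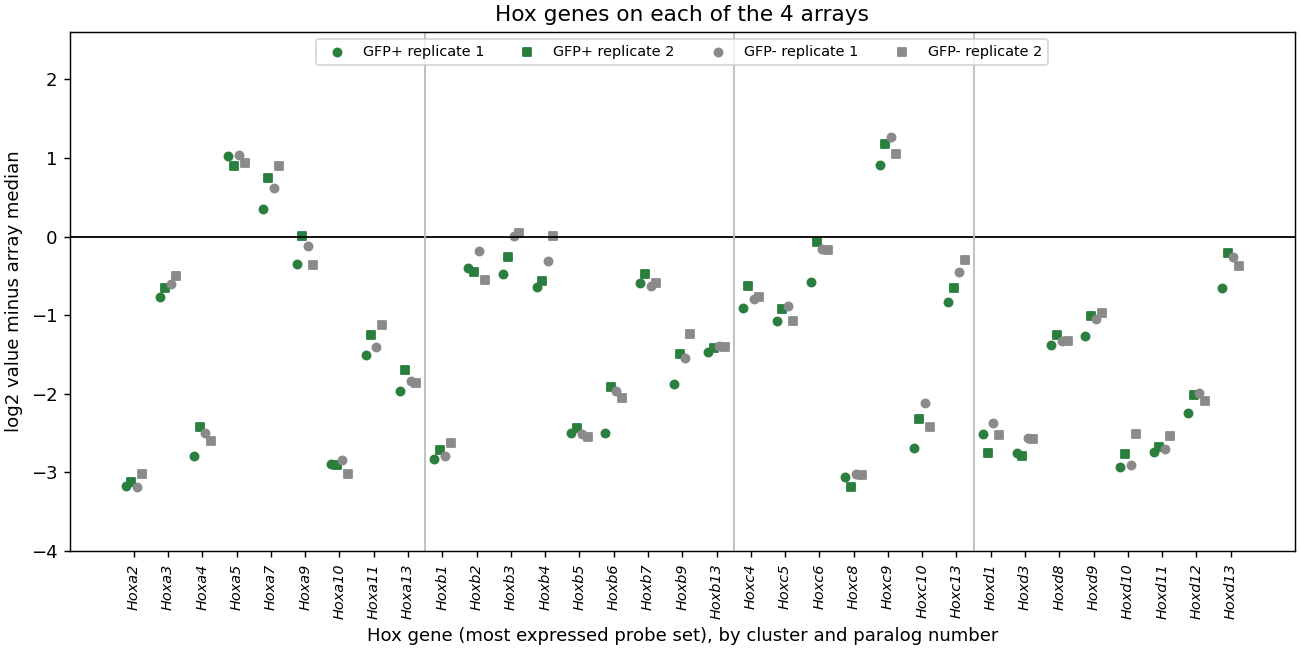
Log2 value minus array median of the 33 Hox genes (most expressed probe set) on each of the 4 arrays, ordered by cluster and paralog number, with the array median as the line at 0. Green points are GFP+ arrays and grey points GFP- arrays, circles for replicate 1 and squares for replicate 2. For most genes the green and grey points are mixed. The points of Hoxa3, Hoxb3, Hoxb4, Hoxc13 and Hoxd3, and narrowly those of Hoxb13 and Hoxc8, lie higher for both GFP- arrays. By log2 values without the array median taken off, 5 of the 33 genes did so, where 38.4% of all genes did.

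Anterior genes were examined gene by gene, since they would be the first to come on. None of the 10 was above the array median in GFP+ cells. In GFP- cells 1 was, Hoxb3, by only 0.0046 on replicate 1 and 0.045 on replicate 2 (log2). Its dimmer probe set lay far below the median on all arrays. Hoxb1, which gives rhombomere 4 of the hindbrain its identity and is an early target of retinoic acid, was 3.07 and 3.16 in GFP+ cells against 3.04 and 3.23 in GFP- cells. It was near the bottom of the array in all samples, with a difference of 0.02 (95% interval -0.24 to 0.29, adjusted p = 0.919, limma). Hoxa2, needed for the second branchial arch and the anterior rhombomeres, was also low throughout, at 2.71, 2.76, 2.65 and 2.84 (GFP+ replicates 1 and 2, then GFP- replicates 1 and 2). Hoxd1 was 3.37 and 3.13 against 3.46 and 3.33. Hoxb2, which Hoxb1 turns on in rhombomere 4, came close to the median at 5.49, 5.43, 5.66 and 5.31, with a difference of 0.03 (-0.33 to 0.39).

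Paralog groups 3 and 4 held the largest Hox differences. Hoxb4, a gene of the caudal hindbrain that is also known from blood stem cells, was 5.25 and 5.32 in GFP+ cells against 5.52 and 5.86 in GFP- cells. Both GFP- arrays were above both GFP+ arrays, and the difference was 0.41 (SE 0.13, 95% interval 0.05 to 0.77), but the value failed the correction (adjusted p = 0.15, limma across all probe sets). Hoxb3, its neighbour in the cluster, was 5.42 and 5.62 against 5.84 and 5.90, a difference of 0.35 (SE 0.10, interval 0.09 to 0.61), and failed it too (adjusted p = 0.111, limma). Both were read by a second, dimmer probe set that did not share the shift: the second of Hoxb4 differed by -0.07 (interval -0.36 to 0.23) and that of Hoxb3 by 0.07 (-0.15 to 0.29), with overlapping groups. With the mean over a gene's probe sets the difference was 0.17 for Hoxb4 and 0.21 for Hoxb3.

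Hoxa3, needed for the thymus, the parathyroid and structures of the third arch, was read by 4 probe sets. The brightest was 5.13 and 5.22 in GFP+ cells against 5.24 and 5.36 in GFP- cells, a difference of 0.12 (interval -0.11 to 0.35). A dim one was 3.44 and 3.46 against 3.77 and 3.65, a difference of 0.26 (adjusted p = 0.133, limma), and the other two differed by 0.19 and 0.01. Of the 4, 3 had groups that did not overlap, all higher in GFP- cells, where 32.5% of all probe sets did so. Hoxd3, a gene of the first cervical vertebrae, was 3.13 and 3.09 against 3.27 and 3.28, and 1 of the probe sets it shares with Hoxd4 was above the median on all arrays, at 6.36, 6.41, 6.77 and 6.36 (difference 0.18, adjusted p = 0.514, limma), with only GFP- replicate 1 apart from the rest. Hoxa4 and Hoxc4, which pattern cervical and upper thoracic vertebrae, differed by 0.02 and -0.06, with overlapping groups.

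No central gene came near the threshold. Of the 9 genes 4 had a difference above 0 and 5 below, from -0.12 to 0.17, and 0 reached an unadjusted p under 0.05 with limma. Hoxb7 was 5.30 and 5.41 in GFP+ cells against 5.20 and 5.27 in GFP- cells, the lowest difference of any Hox gene at -0.12 (interval -0.33 to 0.10, adjusted p = 0.437, limma). Hoxb5 was 3.38 and 3.45 against 3.32 and 3.30, a difference of -0.10. These were the only 2 of 33 Hox genes with both GFP+ arrays above both GFP- arrays, where 21.7% of all genes had them so. Dimmer probe sets of Hoxc5, Hoxc6 and Hoxd8 had both GFP- arrays above both GFP+ arrays, with differences of 0.23, 0.12 and 0.25 (adjusted p = 0.363, 0.395 and 0.192, limma). Hoxc6 and Hoxc8, used in brachial motor neurons, were 5.31, 5.81, 5.67 and 5.69 and 2.83, 2.69, 2.82 and 2.83 on the 4 arrays. The spread between GFP+ replicates of Hoxc6 was larger than its difference between groups. Hoxb6 likewise ran from 3.39 in GFP+ replicate 1 to 3.97 in GFP+ replicate 2, with 3.87 and 3.81 in GFP- cells.

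Posterior genes were mostly dim, with 12 of 14 below the array median on all arrays. Hoxc13, known from hair follicles and nails, had the largest difference among them, at 5.05 and 5.22 in GFP+ cells against 5.39 and 5.57 in GFP- cells. Its lowest GFP- value was above its highest GFP+ value, and the difference of 0.34 (SE 0.11, interval 0.05 to 0.62) failed the correction (adjusted p = 0.141, limma). Hoxb9 was 4.01 and 4.39 against 4.30 and 4.61, a difference of 0.26 with overlapping groups (adjusted p = 0.432, limma). Hoxa9, a gene of blood progenitors and of the kidney and reproductive tract with its paralogs, was 5.54 and 5.89 against 5.72 and 5.50, and Hoxa10, needed in the uterus, was 2.995 and 2.98 against 2.99 and 2.84. Their differences were -0.11 and -0.07. The other probe set of Hoxa10 went the opposite way without overlap, at 2.86 and 2.73 against 3.05 and 2.87 (0.16, adjusted p = 0.374, limma). The genes of paralog group 13, which pattern the digits, hindgut and tail end, differed less than Hoxc13 by their most expressed probe sets: Hoxa13 differed by -0.06, Hoxb13 by 0.01 and Hoxd13 by 0.08. A dimmer probe set of Hoxd13 was 3.97 and 4.35 against 4.51 and 4.43, without overlap, a difference of 0.31 (adjusted p = 0.28, limma).

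**Figure D3:**
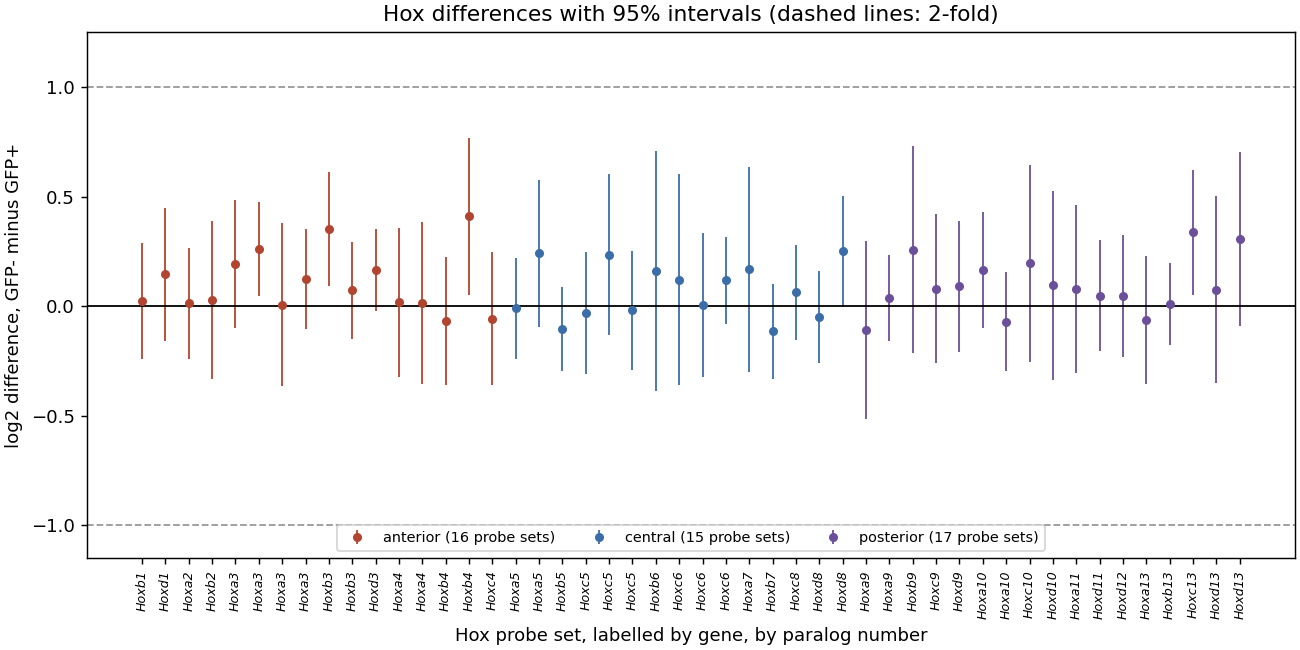
Log2 difference, GFP- minus GFP+, of all 48 Hox probe sets with 95% intervals from limma, ordered by paralog number within the anterior, central and posterior classes, each labelled by its gene. Dashed lines mark a 2-fold difference. All 48 intervals lie between the dashed lines, and the highest reaches 0.77 on the log2 scale (Hoxb4).

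The intervals bound how far apart the groups could be on these probe sets. All 48 Hox intervals lay within 2-fold in either direction, where 91.3% of all probe sets did. Of the 22495 probe sets with a mean below the mean array median, 20910 did. Within 1.5-fold lay 38 of the 48, and 33435 of all 45101 probe sets. The highest upper bound was 1.70-fold higher in GFP- cells (Hoxb4), and the lowest lower bound was 1.43-fold lower (Hoxa9). A dim probe set shows less than the full change of its transcript, so these are bounds on the array values. The groups did not overlap on 13 Hox probe sets that were higher in GFP- cells and on 2 higher in GFP+ cells, where 32.5% and 24.9% of all probe sets did so. The smallest p that an exact permutation test of 2 arrays against 2 can give is 0.333, so that test could not pass for any single gene.

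Median differences by paralog class were small, and their order depended on which probe sets were used. Over genes, the median log2 difference was 0.07 for anterior paralogs (9 of 10 above 0), -0.01 for central ones (4 of 9) and 0.08 for posterior ones (11 of 14), beside 0.05 for all 18194 genes, of which 61.9% were above 0. Over all probe sets of a class the medians were 0.05 (anterior), 0.06 (central) and 0.08 (posterior). With the mean over a gene's probe sets they were 0.09, 0.08 and 0.08. Anterior genes had groups that did not overlap in 4 of 10, all higher in GFP- cells, where 38.4% of all genes did so in that direction. By cluster the medians were 0.01 in HoxA, 0.03 in HoxB, 0.08 in HoxC and 0.08 in HoxD. Over the 48 probe sets the median was 0.07 (37 above 0), beside 0.03 for all, of which 57.1% were above 0. Without GFP+ replicate 1 the Hox median was -0.01 with 23 of 48 above 0, and the anterior, central and posterior medians were 0.06, -0.11 and -0.04. Without GFP+ replicate 2 the Hox median was 0.14 with 41 of 48 above 0, and the posterior median was 0.18. With an array left out in turn, 23 of the 33 genes changed sign at least once. GFP+ replicate 1 also held the lowest median level of Hox probe sets, 3.92, against 4.17 on the other GFP+ array and 3.99 and 3.95 on the GFP- arrays.

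Promoter sequence was examined for what the members share. RefSeq windows from 250 bases before to 50 after the start of a gene (assembly GRCm38.p6) were held for 19 of the 38 members, 21 windows in all. Their median GC content was 58.0% and their median number of CpG dinucleotides 15, beside 52.67% and 7 in all 32851 windows. A ratio of observed to expected CpG over 0.6, the usual mark of a CpG island, was met by 10 of 21 (47.6%), beside 35.8% of all windows. The median ratio was 0.596 in the Hox windows, just under that mark, and 0.384 in all windows. The window of Hoxa3 was above the mark at 0.66 and that of Hoxb4 under it at 0.59. CpG-rich promoters are the class that Polycomb proteins are known to bind. Of the members with an unadjusted p under 0.05 the table held Hoxa3 and Hoxb4, and the 250 bases before the start of each are shown for that reason, 5′ to 3′ on the strand of the gene with each CpG in capitals. Hoxa3, at chr6:52213068-52213317 on the minus strand, holds 18 CpG, and Hoxb4, at chr11:96318017-96318266 on the plus strand, holds 14.
Hoxa3: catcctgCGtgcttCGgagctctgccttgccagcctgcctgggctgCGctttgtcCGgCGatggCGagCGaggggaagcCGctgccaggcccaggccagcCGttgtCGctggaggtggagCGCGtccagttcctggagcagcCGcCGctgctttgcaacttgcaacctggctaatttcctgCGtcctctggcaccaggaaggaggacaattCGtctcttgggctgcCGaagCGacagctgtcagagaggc
Hoxb4: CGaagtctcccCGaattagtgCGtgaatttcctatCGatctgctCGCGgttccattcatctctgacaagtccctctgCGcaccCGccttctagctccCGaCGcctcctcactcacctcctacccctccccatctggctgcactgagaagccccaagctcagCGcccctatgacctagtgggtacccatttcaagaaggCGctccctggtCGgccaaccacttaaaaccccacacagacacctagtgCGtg

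A direct repeat of AGGTCA or AGTTCA with 5 bases between, the form of the retinoic acid response element found beside several Hox genes, was searched on both strands. It was in 0 of the 21 Hox windows and in 0.0396% of all windows, which says only that these letters are not in the 300 bases searched. The letters TGATNNAT, the joined core letters of a Pbx and a Hox site, were in 3 windows (14.3%; all 8.85%), those of Hoxa2, Hoxb1 and 1 of the 2 windows of Hoxd11. Hoxa2 and Hoxb1 are both known to be regulated through Hox and Pbx proteins in the hindbrain, from enhancers that these windows do not cover.

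No gene of the list that turns Hox clusters on passed the test. Of 8 measured inducers 0 were called by limma. At an unadjusted p under 0.05 there were 2, both higher in GFP- cells, where 16.7% of all genes reached that p. Cdx2, a caudal homeobox gene that drives posterior Hox genes, was 4.80 and 4.96 in GFP+ cells against 5.42 and 5.17 in GFP- cells, below the median on all arrays, with a difference of 0.42 (adjusted p = 0.12, limma). Gbx2, which marks the anterior hindbrain, was 3.78 and 3.69 against 4.14 and 3.94. Gdf11, which sets the time of posterior Hox genes, and Wnt3a, a caudal Wnt ligand, differed by 0.01 and 0.16 (adjusted p = 0.979 and 0.391, limma). Egr2, the activator of Hox genes in rhombomeres 3 and 5 and also a rapid response gene, was 7.60 on GFP+ replicate 1 and 5.46, 5.38 and 4.85 on the others, so its value rests on 1 array. The most abundant probe set of Nkx1-2, a gene of caudal neural progenitors, differed by 0.05, while a dimmer one was 3.84 and 3.66 against 5.72 and 4.88 (1.55, adjusted p = 0.0542, limma).

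Retinoic acid genes moved in both directions. Aldh1a2, the main enzyme that makes retinoic acid in the early embryo, was higher in GFP+ cells, 8.84 and 8.71 against 6.06 and 5.98 (-2.76, SE 0.09, adjusted p = 0.00507, limma). Cyp26a1, the enzyme that breaks it down and itself a target of it, was higher in GFP- cells, 8.13 and 7.87 against 5.85 and 5.78 (2.18, SE 0.11, adjusted p = 0.00638, limma). The receptors Rxrg and Rarg were higher in GFP- cells by 1.11 and 0.45, and Rarg lost the call without either GFP+ array (adjusted p = 0.142 and 0.0761). In all, 3 of 12 measured genes were higher in GFP- cells and 1 in GFP+ cells, where 5.4% and 2.63% of all genes were, and Rdh10, which makes the precursor of retinoic acid, and Rxrb did not pass (-0.22 and 0.04). A dim probe set of Rxra also passed, higher in GFP- cells by 0.41 (adjusted p = 0.046, limma), where its brightest differed by -0.08.

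Of the partners of Hox proteins, Meis1 and Meis2 differed. Meis2, a partner of Hox and Pbx proteins that also acts in the eye and forebrain, was 8.63 and 8.44 in GFP+ cells against 7.40 and 7.33 in GFP- cells (-1.17, SE 0.10, adjusted p = 0.0116, limma), and all 4 of its probe sets passed in that direction. Meis1 was 6.23 and 5.94 against 4.96 and 5.19 (-1.01, SE 0.14, adjusted p = 0.0308, limma) by its most expressed probe set, while its other two, both dim, did not pass, and without GFP+ replicate 1 it lost the call (adjusted p = 0.0899). Meis3 was 6.58 and 6.65 against 6.41 and 6.60, with overlapping groups (-0.11, adjusted p = 0.551, limma). Pbx2 and Pbx3 were bright on all arrays, and Pbx4 was below the median on all. Pbx3 differed by 0.23 (adjusted p = 0.227, limma). Pbx2 differed by -0.37 by its most expressed probe set (adjusted p = 0.062, limma), and another of its probe sets passed at -0.51 (adjusted p = 0.0378, limma). The most expressed one of Pbx2 passed with the q-value (0.0359), without dim probe sets (0.0366) and with an intensity trend (0.00768). In all, 2 of 8 partners passed by the most expressed probe set, both higher in GFP+ cells, where 2.63% of all genes were.

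**Figure D4:**
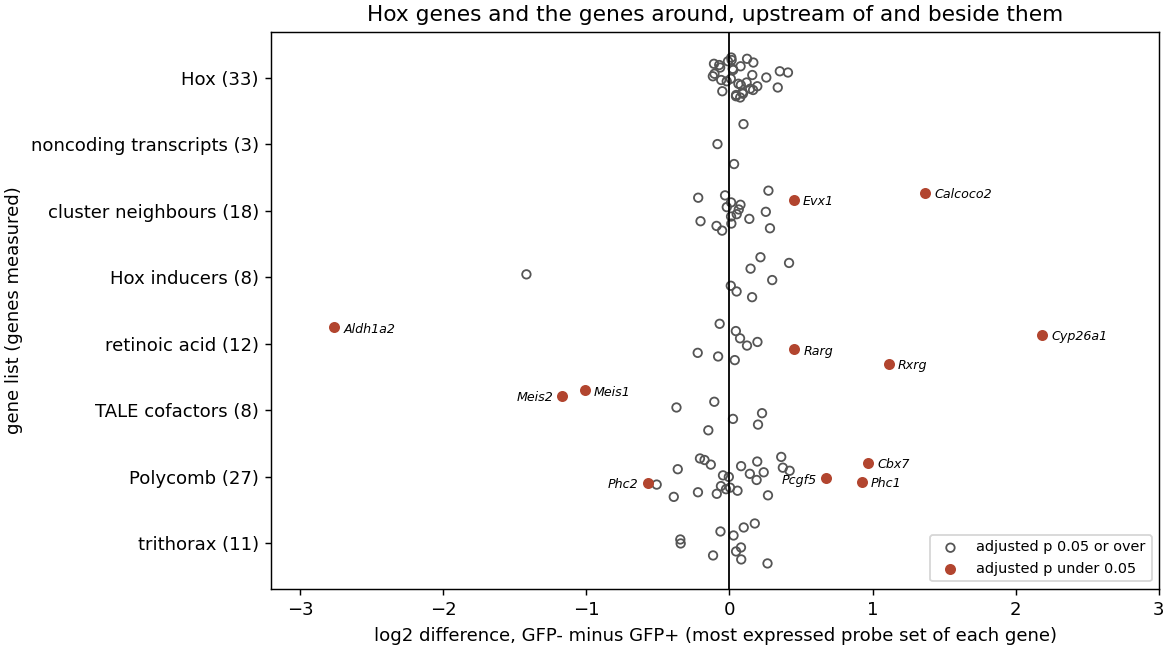
Log2 difference, GFP- minus GFP+, of each gene (most expressed probe set) in the Hox genes and in 7 lists of genes related to them, with the number of genes measured in brackets. Filled red points passed limma at an adjusted p of 0.05 and are named, and open points did not. Hox genes and their noncoding transcripts hold no filled point and lie between -0.12 and 0.41, while Meis, retinoic acid, Polycomb and cluster neighbour genes hold filled points out to -2.76 and 2.18.

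Polycomb genes, the repressors of Hox clusters, were bright in both groups: all 27 measured were above the array median on all arrays. Of these, 3 were higher in GFP- cells, Cbx7 (0.97, adjusted p = 0.0219), Phc1 (0.93, adjusted p = 0.0147) and Pcgf5 (0.68, adjusted p = 0.0255), and Phc2 was higher in GFP+ cells (-0.57, adjusted p = 0.0401, limma), beside the 5.4% and 2.63% of all genes. Cbx7 is the Cbx protein that prevails in embryonic stem cells, and Phc1 is likewise abundant there. Jarid2, which brings a Polycomb complex to DNA, did not pass by its most expressed probe set (0.42, adjusted p = 0.0594), while its other two passed, higher in GFP- cells by 0.52 and 0.70 (adjusted p = 0.0328 and 0.028, limma). The median difference of the list was 0.00. Rbbp4 and Rbbp7, chaperones of histones that also serve in complexes other than Polycomb, differed by -0.02 and 0.06. All 11 trithorax genes and H3K27 demethylases, which oppose Polycomb, were above the median too. By the most expressed probe set 0 passed with limma. At an unadjusted p under 0.05, limma gave 1 higher in GFP- cells, where 16.7% of all genes were. It gave 2 higher in GFP+ cells, where 1663 of all 18194 genes were. A dimmer probe set of Kdm6a passed (-0.64, adjusted p = 0.0493, limma). Without GFP+ replicate 1, 0 of the 27 Polycomb genes passed, and without GFP+ replicate 2, 1 did.

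Genes beside the clusters were compared with the Hox genes between them. Evx1, a homeobox gene next to Hoxa13 that also marks the primitive streak, was 4.45 and 4.41 in GFP+ cells against 4.94 and 4.83 in GFP- cells, below the median on all arrays (0.45, SE 0.08, adjusted p = 0.0475, limma), and it lost the call with quantile normalization (adjusted p = 0.0527), with an intensity trend (0.0614) and without either GFP+ array. Calcoco2, a receptor of autophagy that lies beyond Hoxb13 with 1 gene between, was 4.10 and 4.48 against 5.83 and 5.50 (1.37, SE 0.18, adjusted p = 0.0281, limma) and lost it without GFP+ replicate 1 (adjusted p = 0.0804). These were the 2 of 18 measured neighbours that passed by the most expressed probe set, where 5.4% of all genes passed higher in GFP- cells. Evx2, next to Hoxd13, did not (0.01), nor did Cbx1 and Cbx5, which encode heterochromatin proteins, by their most expressed probe sets (-0.03 and -0.22). A dimmer probe set of Cbx5 passed, at 9.96 and 9.90 against 8.77 and 8.97 (-1.06, adjusted p = 0.0144, limma). So did a dim one of Snx10 (-0.89, adjusted p = 0.0397, limma). In all, 4 of the 40 probe sets of the list were called, where 7.47% of all probe sets were. The 3 noncoding transcripts measured in the clusters, Hoxa11os, Hoxb5os and Hoxd3os1, differed by 0.10, -0.08 and 0.03, and all lay below the median on all arrays. The 6 ParaHox genes, the sister group of the Hox genes, lay below it too in both groups, with 0 passing limma and Cdx2 alone at an unadjusted p under 0.05. Over all genes 16.7% reached that p higher in GFP- cells.

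Regional markers place these values along the neural axis. Otx2, which covers the forebrain and midbrain and ends at the isthmus, was 12.63 and 12.54 in GFP+ cells against 12.50 and 12.55 in GFP- cells (-0.06, interval -0.26 to 0.15). Lmx1b and the Irx genes of the midbrain were higher in GFP- cells (Lmx1b by 1.90, adjusted p = 0.0119, and 0.0561 without GFP+ replicate 1, limma). Fgf8 of the isthmus differed by 0.82 without passing (adjusted p = 0.0841, limma). Of 10 measured genes of the primitive streak and mesoderm 1 passed, Eomes, which was 2.48 higher in GFP- cells, and of 8 neural crest genes Ets1 and Foxd3 were higher in GFP- cells and Snai2 in GFP+ cells, the last without a call when either GFP+ array was left out (adjusted p = 0.123 and 0.0735). Over all genes 5.4% passed higher in GFP- cells and 2.63% higher in GFP+ cells. Between cells that differed in these markers, all 48 Hox intervals stayed within 2-fold, where 91.3% of all probe sets did. Of the 22495 probe sets with a mean below the mean array median, 20910 stayed within it too.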

How the data were processed

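Cells sorted as Rax::GFP+ and Rax::GFP- were measured on Affymetrix Mouse Genome 430 2.0 arrays, 2 per group. The authors summarised each probe set by RMA and deposited log2 values (the labels name R 2.13.0). RMA fits every array to the same spread of values, which hides any change in the total RNA of a cell. From these values limma 3.58.1 in R 4.3.3 was fitted to all 45101 probe sets, 64 control probe sets included, as 2 groups with no filter and no replicate block (2 residual degrees of freedom, prior 2.52), and p-values were adjusted by Benjamini-Hochberg at 0.05. The smallest difference called was 0.38. The fit was tested on simulated data. Genes were named by the platform annotation: 34958 probe sets had 1 symbol, 932 several and 9211 were unnamed here. Hox members, gene lists and alternatives were chosen with earlier results of these data known. Named were members above the array median or with the 4 largest differences in each direction, and of each list up to 4 genes that passed and 2 bright ones that did not. Members with an unadjusted p under 0.05, all anterior genes, and further examples of the lists (Gbx2, Egr2, Nkx1-2, Evx2, Meis3, Pbx4, Jarid2, Kdm6a, Rxra, Snx10) were named after their values were seen. With 2 arrays a group, the number of arrays limits the precision. Protein sequences were not used here. Promoter windows came from RefSeq.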

Additional observations from a re-analysis of the deposited data

How the results depend on the processing

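No Hox probe set passed under any alternative tried: a replicate block, q-values after Storey, removal of dim probe sets (log2 of at least 5 on at least 2 arrays, which left 14 Hox probe sets), centring, quantile normalization, an intensity trend, array weights, leaving out control probe sets or each array in turn. The lowest adjusted p among them ran from 0.0639 to 0.276. Whether arrays with the same replicate number share a sort is not stated by the labels. The correlation of their deviations was -0.051, which cannot settle it with 2 arrays a group. With the replicate number as a block 0 probe sets passed, where 3367 did without it. The lists of TALE partners, retinoic acid, Polycomb, neighbours, forebrain, midbrain, endoderm, pluripotency, streak and neural crest then also held 0 calls. All probe sets called numbered 6134 with the q-value, 6962 with the trend, 4675 with the filter, and 0 to 2978 with an array left out. Polycomb calls were 10 with the q-value, 8 with the filter, 12 with the trend and 7 with the mean over probe sets; streak calls were 3 with the q-value, the trend and the mean. Neighbour calls were 1 with the filter or quantile normalization and 4 with the trend, trithorax calls 3 with the trend and 1 with the mean, and inducer calls 1 with the mean. With an array left out, calls ran from 0 to 2 (TALE), 0 to 1 (inducers), 0 to 3 (retinoic acid), 0 to 1 (Polycomb), 0 to 1 (neighbours), 0 to 5 (forebrain), 0 to 5 (midbrain), 0 to 11 (endoderm), 0 to 9 (pluripotency), 0 to 1 (streak) and 0 to 2 (neural crest). The cause was not tested.

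Hox medians ran from -0.0063 to 0.12 in HoxB, -0.051 to 0.21 in HoxC and -0.0078 to 0.15 in HoxD with an array left out, and HoxB was 0.19 with the filter. Centring moved the median of all probe sets from 0.03 to 0.07. With the 75th percentile as the mark, 0 Hox genes were above it in GFP+ and 0 in GFP- cells. Of the 33 Hox genes 23 changed sign with some array left out, none of them a called gene. Among all genes named by rule, signs turned for the following, none of which had passed. With centring these were Cbx1 (0.0082), Hoxa5 (0.029), Rbbp4 (0.015) and Sox10 (0.015), with quantile normalization Hoxa5 (0.046), Hoxd3os1 (-0.011) and Sox10 (0.032), and with the mean over probe sets Cbx1 (0.0019), Hoxa10 (0.046), Hoxa5 (0.12) and Sox10 (0.11). With an array left out, Gdf11 ran from -0.17 to 0.19, Hoxa10 from -0.15 to 0.0040, Hoxa5 from -0.077 to 0.057, Hoxa7 from -0.026 to 0.36, Hoxa9 from -0.28 to 0.066, Hoxc9 from -0.051 to 0.21, Hoxd3os1 from -0.049 to 0.11, Kdr from -0.16 to 0.012, Rbbp4 from -0.048 to 0.00097 and Sox10 from -0.099 to 0.051. Of the other values of single genes, 773 kept their direction and call, 20 gained a call and 123 lost it. Dim probe sets limit what can be seen of Hox transcripts.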
